A study of Mus musculus with 6 samples.

Results

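The genes described here are 10 that encode subunits of the AP-1 transcription factor (Fos, Fosl2, Jun, Junb, Jund and Atf3), zinc finger factors of the EGR family (Egr1 and Egr2) and immediate early response proteins (Ier2 and Ier3). They were chosen by name, as the rows whose symbol in the GENCODE M21 annotation of the mouse genome GRCm38 is one of these, and they make up 10 of the 54532 genes listed for each library. All 10 had a mean of at least 1 FPKM (a fragment count divided by exon length and by library depth) over the 6 libraries and were tested. RNA-seq was performed on iBMDMs, mouse bone marrow-derived macrophages made into a cell line by retroviral v-raf and v-myc, which both groups carry. The 3 control libraries came from cells that received a control shRNA and the 3 PGAM5 KD libraries from cells with an shRNA targeting Pgam5, delivered by lentivirus. Cells of both groups received LPS at 100 ng/ml and were harvested after 4 hours. Since none of the 6 libraries came from untreated cells, a difference between the groups is one of levels after LPS and not of induction.

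AP-1 is a dimer of basic leucine zipper proteins. JUN proteins pair with each other or with FOS or ATF proteins, FOS proteins need a partner, and the dimers bind short DNA elements called TRE and CRE. Immediate early genes such as Fos, Jun, Egr1 and Ier2 are transcribed within minutes of a stimulus without new protein synthesis, through MAP kinases and the serum response factor SRF, and their mRNAs are short-lived. In macrophages, LPS acting through TLR4 is a classical inducer of these genes.

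The upstream sequences of 3 of the genes are shown because Fos, Junb and Ier3 had the largest fall and 2 of the rises among the 10, and because their RefSeq start sites lay within 30 bases of the GENCODE starts. Each is a run of 120 bases of GRCm38.p6 from the RefSeq table, 5′ to 3′ on the strand of the gene. It ends just before the more upstream of the RefSeq and GENCODE starts. Capitals mark TGACG, the half-site of a CRE, and TATAA, the core letters of a TATA box. The stretch of Fos is chr12:85473770-85473889 (plus strand), that of Junb is chr8:84978749-84978868 (minus strand) and that of Ier3 is chr17:35821564-35821683 (plus strand).
Fos: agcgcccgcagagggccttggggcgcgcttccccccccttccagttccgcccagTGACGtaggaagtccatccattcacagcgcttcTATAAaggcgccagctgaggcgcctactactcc
Junb: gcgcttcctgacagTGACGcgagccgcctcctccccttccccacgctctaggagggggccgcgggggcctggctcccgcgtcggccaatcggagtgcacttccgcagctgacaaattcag
Ier3: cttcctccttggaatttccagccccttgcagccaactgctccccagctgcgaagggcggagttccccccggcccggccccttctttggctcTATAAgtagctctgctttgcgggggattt
RefSeq windows of 300 bases, from 250 before to 50 after the start, were matched by symbol for 8 of the 10 genes, all but Egr1 and Ier2. Motifs were searched on both strands. In Fos, TGACG stood at −66 to −62 and again at −129 to −125 from the start, and TATAA at −33 to −29. In Junb, TGACG stood at −106 to −102 and TATAA at 1 to 5, and in Ier3, TATAA stood at −58 to −54. TGACG was also in the window of Atf3 and in 3 overlapping windows of Egr2, 1 of which held TATAA, and neither motif was in the windows of Fosl2, Jun and Jund. TGACG was in 20.8% and TATAA in 24.9% of all 32851 RefSeq windows, and these 2 motifs were chosen after the sequences had been seen. No window of the 8 genes held the TRE letters TGANTCA, found in 7.81% of all windows, or the full CRE letters TGACGTCA, found in 1.79%. Only these exact letters were searched, so a window without them can still hold a variant of either element. A TGACG also counts inside a full CRE. The window of Fosl2 held 1 EGR site (GCGNGGGCG, 5.55% of all windows), and windows of Egr2 held a CArG box, the element bound by SRF, which was in 1.63% of all windows. The 4 Egr2 windows with this box hold 2 distinct sites, since 3 of them overlap and share 1 site. These matches describe letters in a window and are not evidence of binding. The RefSeq start lay 671 bases from the GENCODE gene start for Fosl2, 1210 for Jund and 34706 for Atf3. For the Egr2 windows with a CArG box it lay 2091 to 2455 bases away. Such windows need not be the promoters of the transcripts measured.

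Depth recovered from the FPKM steps ranged from 18163450 to 24388896 fragments per library. Pgam5, the targeted gene, was at 17.1, 13.0 and 13.4 FPKM in control and at 4.33, 5.75 and 4.53 FPKM in PGAM5 KD libraries (log2 fold change −1.40, SE 0.13, adjusted p = 0.000358 from limma). Of the 8 macrophage markers, 7 were tested, with 4 called higher and 3 lower in PGAM5 KD where 31.7% of all genes tested were called, and Mertk was listed at 0 in all 6 libraries. Their summed FPKM ranged from 2802 to 2894 over the control libraries and from 2526 to 2544 over the PGAM5 KD libraries, a sum in which Lyz2 is the most abundant gene. The log2 fold changes were −0.64 for Csf1r, −0.40 for Lyz2 and −0.20 for Cd68, and 1.51 for Fcgr1, 0.85 for Adgre1, 0.68 for Itgam and 0.56 for Cd14, which is also the median of the 7. No marker of neutrophils, fibroblasts, lymphocytes or dendritic cells was above 0.460 FPKM in any library. In bulk RNA, fewer cells of a type and less RNA per cell cannot be told apart. The sum of FPKM over all genes ranged from 304393 to 304889 in control libraries and was higher in PGAM5 KD libraries, from 317936 to 324298. TPM scales every library to the same sum, which removes this shift by construction. Whether the changes of the markers or the shift in the summed FPKM plays a part in the results was not tested, beyond the values under TPM.

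Of the 10 genes, 4 were called higher in PGAM5 KD cells (Ier3, Jund, Junb and Ier2), 2 were called lower (Fos and Fosl2) and 4 were not called (Jun, Atf3, Egr1 and Egr2), at an adjusted p under 0.05 from limma on log2(FPKM + 1). Across all 10540 genes tested, 31.7% were called, 16.8% higher and 14.9% lower. The median log2 fold change was 0.16 over the 10 genes and 0.01 over all genes tested. None of the 10 passed the rule in the study's methods, an adjusted p under 0.05 with an absolute log2 fold change above 1, which 1.32% of all genes did. The largest rise was that of Ier3 (log2 fold change 0.95) and the largest fall that of Fos (−0.88). Without PGAM5 KD replicate 1, Ier3 came to 1.01 and passed that rule. The 3 libraries of each group did not overlap for 7 of the 10 genes, 5 higher and 2 lower in PGAM5 KD. The groups were apart for 47.1% of all genes tested, 24.2% higher and 22.9% lower. With TPM in place of FPKM, the genes called over the whole table were 1088 higher and 2282 lower, against 1771 and 1575 with FPKM.

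**Figure D1:**
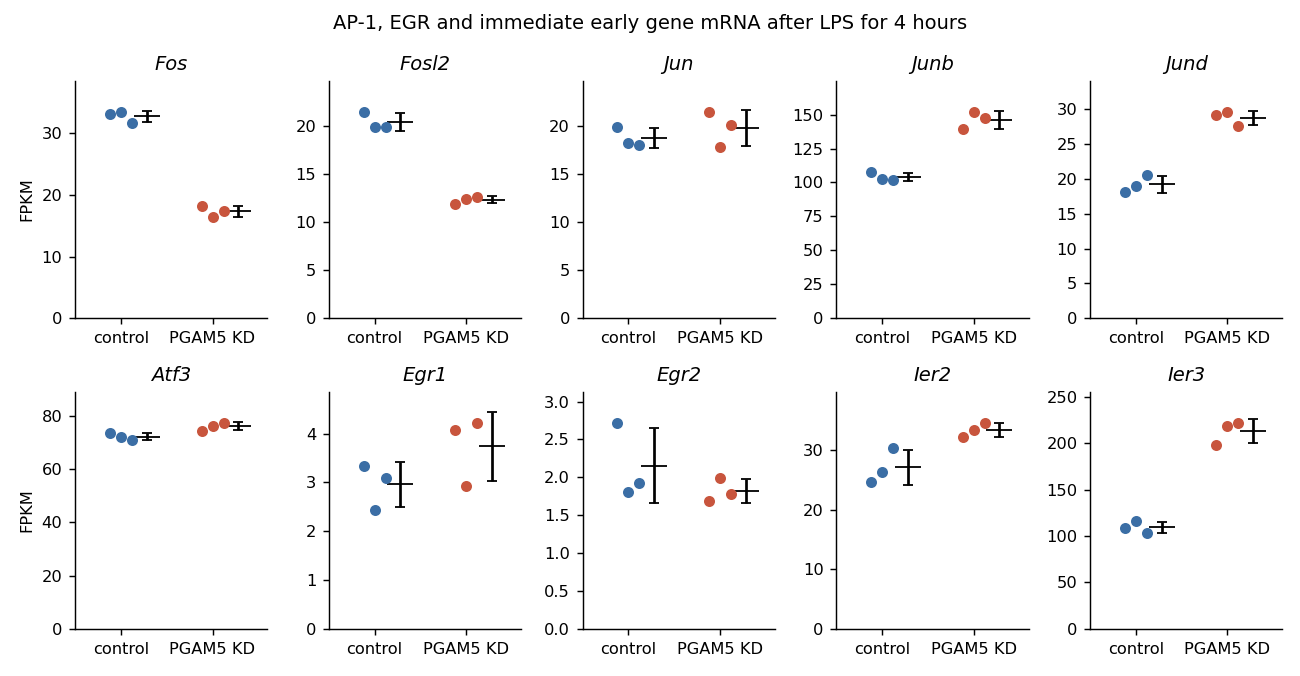
FPKM (y axis, from 0) of the 10 genes in each of the 3 control (blue) and 3 PGAM5 KD (red) libraries, with the mean and SD in black beside the points. Fos and Fosl2 lie lower in every PGAM5 KD library, Junb, Jund, Ier2 and Ier3 lie higher, and the points of Jun, Egr1 and Egr2 overlap.

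Both FOS family members of the set were lower in PGAM5 KD cells. FOS proteins do not pair with each other and need a partner, such as a JUN protein, to bind DNA. Fos (ENSMUSG00000021250, chr12:85473890-85477273, plus strand, 4 exons) was at 33.1, 33.5 and 31.7 FPKM in control libraries and at 18.3, 16.5 and 17.4 FPKM in PGAM5 KD libraries. Every PGAM5 KD library was well below every control library. Its mean fell by 47.0%, from 32.8 ± 0.924 to 17.4 ± 0.903 FPKM (SD, n = 3 each), with a log2 fold change of −0.88 (SE 0.05, 95% interval −0.99 to −0.76, adjusted p = 4.74e-05 from limma). Between 703 and 1588 fragments per library lay on Fos. By log2 fold change it ranked 120 from the lowest of the 10540 genes.

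Fosl2 (ENSMUSG00000029135, chr5:32135801-32157842, plus strand, 4 exons), which encodes the FOS-related protein FRA-2, was at 21.5, 19.9 and 19.9 FPKM in control and at 11.9, 12.4 and 12.7 FPKM in PGAM5 KD. These groups were apart as well. The mean fell by 39.6%, from 20.4 ± 0.915 to 12.3 ± 0.366 FPKM (SD, n = 3 each), with a log2 fold change of −0.68 (SE 0.05, 95% interval −0.80 to −0.57, adjusted p = 0.000131 from limma). Fos and Fosl2 kept their direction and their call in all 16 other fits, with log2 fold changes between −0.98 and −0.84 for Fos and between −0.79 and −0.65 for Fosl2.

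Among the JUN genes, which encode partners of FOS proteins, Junb and Jund were higher in PGAM5 KD cells and Jun was not called. Junb (ENSMUSG00000052837, chr8:84974484-84978718, minus strand, 2 exons), whose protein activates fewer promoters than c-Jun and can counter it, was at 107, 103 and 102 FPKM in control and at 139, 152 and 148 FPKM in PGAM5 KD. The groups did not overlap. Its mean rose by 40.7%, from 104 ± 3.02 to 146 ± 6.58 FPKM (SD, n = 3 each; log2 fold change 0.49, SE 0.04, adjusted p = 0.000287 from limma). Junb shares 173 exon bases with Prdx2 on the opposite strand, and Prdx2 was also called higher (61.9 to 72.0 FPKM, log2 fold change 0.21, adjusted p = 0.00396 from limma). The labels do not state if the libraries were directional, and fragments of both genes in the shared stretch cannot be told apart.

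Jund (ENSMUSG00000071076, chr8:70698949-70700616, plus strand, a single exon), the JUN gene that is expressed most steadily in resting cells, was at 18.2, 19.0 and 20.6 FPKM in control and at 29.1, 29.6 and 27.7 FPKM in PGAM5 KD. All PGAM5 KD libraries were above all control libraries. The increase was 49.6% (19.3 ± 1.23 to 28.8 ± 1.02 FPKM, SD, n = 3 each), with a log2 fold change of 0.56 (SE 0.05, adjusted p = 0.000504 from limma). An antisense gene, Gm11175, overlaps 877 of its exon bases and was listed at 0 in all libraries. The calls of Junb and Jund held in all 16 other fits.

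Jun (ENSMUSG00000052684, chr4:95049034-95052222, minus strand, a single exon), which encodes c-Jun, was at 19.9, 18.2 and 18.0 FPKM in control and at 21.4, 17.8 and 20.1 FPKM in PGAM5 KD. The groups overlapped, with PGAM5 KD replicate 2 the lowest of the 6 libraries. The log2 fold change was 0.07 with a 95% interval from −0.10 to 0.25 (adjusted p = 0.486 from limma, with an exact permutation p of 0.6), and it was −0.0013 with TPM. With each library left out in turn it ranged from 0.02 (without PGAM5 KD replicate 1) to 0.14 (without PGAM5 KD replicate 2). The interval does not reach the log2 fold change of Junb or Jund. The antisense gene Junos, which shares 232 exon bases with Jun, was at no more than 0.289 FPKM.

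Atf3 (ENSMUSG00000026628, chr1:191170296-191218039, minus strand, up to 5 exons), a stress-induced partner of JUN proteins that can repress transcription, was at 73.5, 72.2 and 70.9 FPKM in control and at 74.4, 76.3 and 77.4 FPKM in PGAM5 KD. The PGAM5 KD libraries were above the control libraries by a small margin. The log2 fold change of 0.07 (95% interval −0.0017 to 0.15) did not pass the test (adjusted p = 0.123 from limma), and its direction turned with TPM (−0.0042) and with quantile normalization (−0.02). With 3 libraries per group the exact two-sided permutation test cannot give a p below 0.1, which is its value for Atf3 and for each of the 6 genes called.

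**Figure D2:**
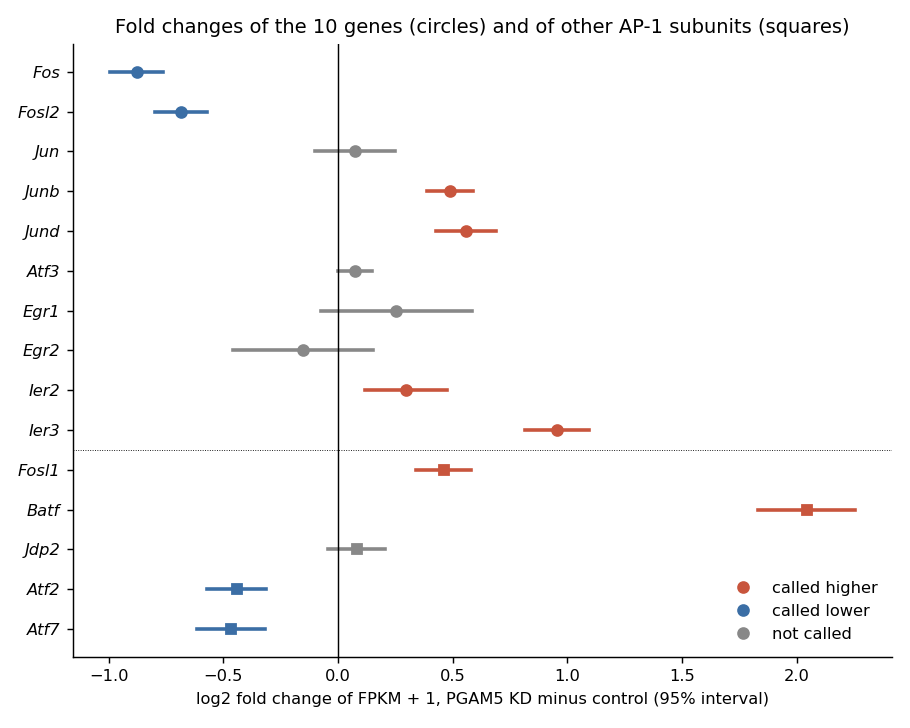
Log2 fold change of FPKM + 1 (x axis, PGAM5 KD minus control) with its 95% interval from limma for the 10 genes (circles) and 5 other AP-1 subunits (squares), coloured by call. Fos and Fosl2 lie left of 0 with Atf2 and Atf7, the intervals of Jun, Atf3, Egr1, Egr2 and Jdp2 include 0, and Batf lies farthest to the right at 2.04.

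The EGR genes were at low levels in both groups. Egr1 (ENSMUSG00000038418, 3 exons), an SRF target that encodes a zinc finger activator, was at 3.34, 2.44 and 3.10 FPKM in control and at 4.07, 2.92 and 4.22 FPKM in PGAM5 KD. The groups overlapped through PGAM5 KD replicate 2. Between 221 and 462 fragments per library lay on Egr1, and its log2 fold change was 0.25 with a 95% interval from −0.08 to 0.58 (adjusted p = 0.210 from limma, with an exact permutation p of 0.3). With 1 library left out it ranged from 0.16 (without control replicate 2) to 0.39 (without PGAM5 KD replicate 2). Egr2 (ENSMUSG00000037868, chr10:67535475-67542188, plus strand, 4 exons), a related factor with roles in myeloid differentiation, was at 2.72, 1.81 and 1.93 FPKM in control and at 1.69, 1.99 and 1.77 FPKM in PGAM5 KD. Control replicate 1 stood above the other 5 libraries, which were mixed. The log2 fold change was −0.15 with a 95% interval from −0.46 to 0.15 (adjusted p = 0.411 from limma, with an exact permutation p of 0.4), from 123 to 168 fragments per library. With 1 library left out it ranged from −0.23 (without control replicate 2) to −0.03 (without control replicate 1), and with TPM it was −0.26. On this scale the constant of 1 shrinks the fold changes of genes at such levels, and changes of the size of that of Fos lie outside both intervals.

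The IER genes were both called higher. Ier3 (ENSMUSG00000003541, chr17:35821684-35822923, plus strand, 2 exons), also known as IEX-1, encodes a short-lived protein that acts in cell survival and NF-κB and ERK signaling. It was at 109, 116 and 103 FPKM in control and at 198, 218 and 222 FPKM in PGAM5 KD. Every PGAM5 KD library was far above every control library. The mean rose from 109 ± 6.35 to 213 ± 13.1 FPKM (SD, n = 3 each), a 1.95-fold level, with a log2 fold change of 0.95 (SE 0.06, 95% interval 0.82 to 1.09, adjusted p = 7.74e-05 from limma). Ier3 ranked 117 from the highest by log2 fold change among the genes tested, and its call held in all 16 other fits.

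Ier2 (ENSMUSG00000053560, chr8:84661331-84662852, minus strand, a single exon), which encodes a nuclear protein of the immediate early response, was at 24.7, 26.3 and 30.5 FPKM in control and at 32.2, 33.5 and 34.7 FPKM in PGAM5 KD. The groups did not overlap, but control replicate 3 was close to the lowest PGAM5 KD library. The mean rose by 23.2% (27.2 ± 2.97 to 33.5 ± 1.22 FPKM, SD, n = 3 each; log2 fold change 0.30, SE 0.08, adjusted p = 0.0247 from limma). This call was lost without control replicate 1 (log2 fold change 0.23, adjusted p = 0.0616), without control replicate 2 (0.28, 0.0757), without PGAM5 KD replicate 2 (0.30, 0.0660) and without PGAM5 KD replicate 3 (0.27, 0.0793), all from limma. It was also lost with TPM (0.23, 0.0616) and without the filter on low values (0.30, 0.0661). Over all 16 alternatives the adjusted p of Ier2 ranged from 0.00579 to 0.0793.

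FPKM is a level per exon length, so the levels of the genes can be ordered. The length counts the exon bases of all annotated transcripts (9680 for Fosl2), so the order depends on the annotation. In control cells the order of the mean levels was Ier3, Junb, Atf3, Fos, Ier2, Fosl2, Jund, Jun, Egr1 and Egr2. The libraries of Ier3 and Junb overlapped, as did those of Fosl2 and Jund, of Jund and Jun, and of Egr1 and Egr2, and the other neighbours were apart. In PGAM5 KD cells the order was Ier3, Junb, Atf3, Ier2, Jund, Jun, Fos, Fosl2, Egr1 and Egr2, and only Jun and Fos overlapped among neighbours. Fos thus went from above Ier2, Jund and Jun to below Ier2 and Jund. The summed level of the 10 genes ranged from 401 to 413 FPKM over the control libraries and from 530 to 566 FPKM over the PGAM5 KD libraries, most of it from Ier3, Junb and Atf3.

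The composition of each family was described as the share of each gene in the summed FPKM of its family, a summary chosen after the values had been seen and given with no test. The JUN genes summed to 142 ± 3.09 FPKM in control and 195 ± 4.93 FPKM in PGAM5 KD (SD, n = 3 each). Junb held 73.2% ± 0.673 of this sum in control and 75.0% ± 1.51 in PGAM5 KD, and the share of Jun went from 13.2% ± 0.454 to 10.2% ± 1.19. The FOS genes summed to 80.7 ± 0.457 FPKM in control and 68.0 ± 1.76 FPKM in PGAM5 KD. The share of Fos went from 40.6% ± 1.23 to 25.6% ± 1.56 and that of Fosl2 from 25.3% ± 1.01 to 18.1% ± 0.308, while Fosl1, which encodes FRA-1 and is not one of the 10 genes, went from 34.1% ± 1.76 to 56.2% ± 1.30. Fosb held under 1% in every library. The ratio of summed FOS to summed JUN mRNA was 0.558, 0.574 and 0.576 in control and 0.352, 0.337 and 0.358 in PGAM5 KD libraries, so it was lower in each PGAM5 KD library. These are mRNA levels and do not measure dimers.

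**Figure D3:**
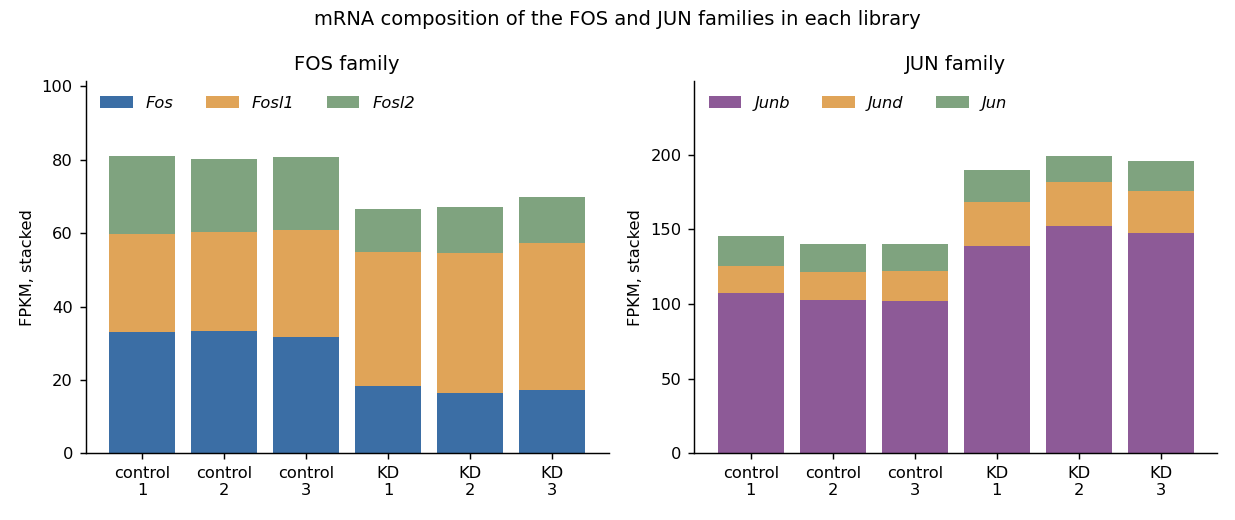
FPKM (y axis, stacked from 0) of the FOS genes Fos, Fosl1 and Fosl2 (left) and the JUN genes Junb, Jund and Jun (right) in each of the 6 libraries. Fosb is left out since it held under 1% of the FOS sum. The FOS bars are lower in PGAM5 KD libraries and mostly Fosl1, and the JUN bars are higher and mostly Junb.

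A ratio of 2 genes within a library does not depend on the scaling between libraries. For 6 pairs of related genes the log2 ratio was compared by the exact two-sided permutation test, which cannot go below p = 0.1 here, with Benjamini-Hochberg adjustment over the 6 pairs. The log2 ratio of Jun to Jund was lower in PGAM5 KD by 0.51, that of Jun to Junb by 0.41 and that of Ier2 to Ier3 by 0.65, and the libraries were apart in each (exact permutation p = 0.1, adjusted p = 0.15). The ratio of Fos to Fosl2 was lower by 0.19, with the groups apart by a narrow margin (exact permutation p = 0.1, adjusted p = 0.15). The log2 ratio of Junb to Jund differed by −0.09 between groups that overlapped (exact permutation p = 0.4, adjusted p = 0.4). This difference ranged from −0.16 (without control replicate 3) to −0.03 (without control replicate 1) with 1 library left out. The ratio of Egr1 to Egr2 was higher by 0.55, with overlapping groups (exact permutation p = 0.2, adjusted p = 0.24). No pair passed the adjusted threshold, which the design does not allow.

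**Figure D4:**
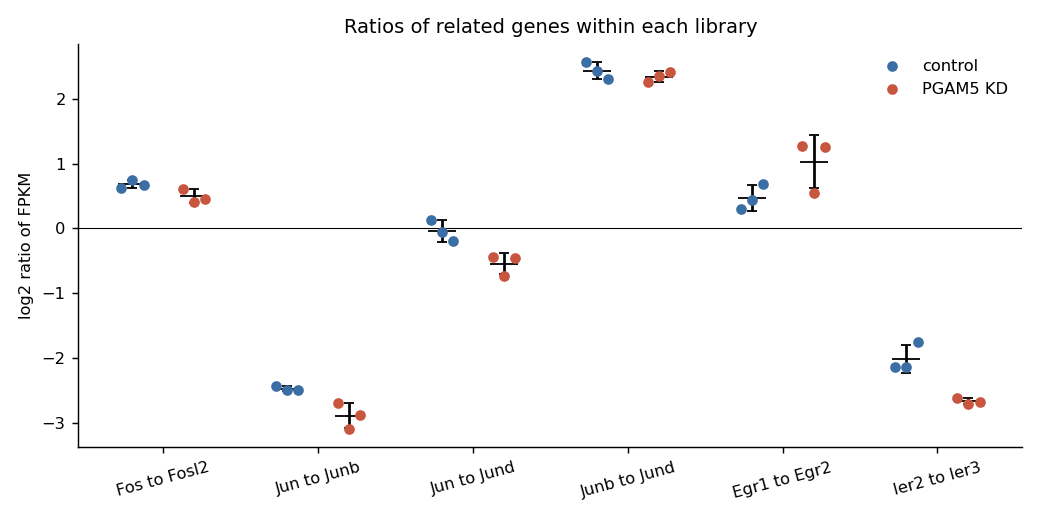
Log2 ratio of FPKM (y axis) between related genes within each control (blue) and PGAM5 KD (red) library, with the mean and SD in black. The groups are apart for Fos to Fosl2, Jun to Junb, Jun to Jund and Ier2 to Ier3, and overlap for Junb to Jund and Egr1 to Egr2.

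Of the 8 other genes of AP-1 subunits, 5 were tested, of which 2 were called higher and 2 lower (31.7% of all genes tested were called), with a median log2 fold change of 0.08. Batf, which encodes a small leucine zipper protein that pairs with JUN proteins, was at 1.64, 1.52 and 1.71 FPKM in control and at 8.61, 10.7 and 10.3 FPKM in PGAM5 KD. It rose in every PGAM5 KD library, with a log2 fold change of 2.04 (SE 0.09, adjusted p = 2.27e-05 from limma), more than any of the 10 genes. Its control values rest on 42 to 47 fragments per library. The constant of 1 shrinks this change, and the ratio of mean FPKM was 6.07. Fosl1 was at 26.6, 26.8 and 29.1 FPKM in control and at 36.5, 38.2 and 39.9 FPKM in PGAM5 KD (log2 fold change 0.46, SE 0.05, adjusted p = 0.000887 from limma), against the direction of Fos and Fosl2. Atf2 and Atf7, related CRE-binding factors that pair with JUN proteins, were called lower, with log2 fold changes of −0.44 and −0.47 (adjusted p = 0.00135 and 0.00199 from limma). Jdp2, which encodes a JUN dimerization protein that represses AP-1, was at 131, 118 and 115 FPKM in control and at 132, 127 and 125 FPKM in PGAM5 KD, with overlapping groups, and was not called (log2 fold change 0.08, 95% interval −0.04 to 0.21, adjusted p = 0.287 from limma). Fosb, Batf2 and Batf3 were under the filter.

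Upstream of these genes, the MAP kinase route from TAK1 and TPL2 to the RSK and MSK kinases held 16 tested genes of 17, with 3 called higher and 1 lower and a median log2 fold change of −0.0013. Over all genes tested, 31.7% were called, and the share of this list was no larger. Map2k1, which encodes the ERK kinase MEK1, was called higher (log2 fold change 0.58, adjusted p = 0.000194 from limma), as were Rps6ka4 (0.52) and Rps6ka1 (0.16), and Map2k3, a kinase of p38, was called lower (−0.26). Without PGAM5 KD replicate 2, 6 of these 16 genes were called. In that fit 1299 of all 10540 genes tested were called higher and 1147 lower, so the share of this list was then the larger. Of SRF and its 5 cofactors, all tested, 1 was called higher and 2 lower. These were Elk3 (log2 fold change 0.57), Mrtfb (−0.52) and Mrtfa (−0.20). In the MAF family, basic leucine zipper proteins that can join AP-1 dimers, 3 of 5 genes were tested, and Mafg was called lower (−0.34, adjusted p = 0.00228 from limma) with no gene called higher. Of Egr3, Egr4 and the EGR corepressor genes Nab1 and Nab2, only the last 2 were tested and neither was called (adjusted p above the threshold of 0.05 in limma). Egr4 was listed at 0 in all libraries.

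Of 20 other immediate early genes, 15 were tested, of which 5 were called higher and 2 lower (against 16.8% and 14.9% of all genes tested), with a median log2 fold change of 0.11. Those called higher were Klf2 (log2 fold change 0.75), Ier5 (0.50), Zfp36 (0.44), Dusp2 (0.40) and Btg2 (0.31), and those called lower were Plk2 (−0.34) and Myc (−0.25). Zfp36 encodes an mRNA decay factor and Dusp2 a MAP kinase phosphatase. The cells also carry v-myc, and whether its transcripts add fragments to Myc was not tested. The 7 calls of this list became 4 without PGAM5 KD replicate 3. Of 13 genes often given as AP-1 targets, 11 were tested, of which 8 were called higher and 0 lower (3 not called), where 16.8% of all genes tested were called higher and 14.9% lower. Il6 passed the filter only through the PGAM5 KD libraries, and without it, a step added after the values were seen, 7 of 10 were called higher and 0 lower. The median of these log2 fold changes was 0.59, or 0.53 without Il6, and that of all genes tested was 0.01. Apart from Il6, the largest changes were those of Ptgs2 (1.63), Plaur (0.80), Timp1 (0.76) and Spp1 (0.64). Il6 was at 0.340, 0.694 and 0.359 FPKM in control, from 15 to 34 fragments, and at 6.75, 7.98 and 7.41 FPKM in PGAM5 KD. Its log2 fold change of 2.52 depends on the constant of 1, which exceeds its control level. Many of these genes also have other regulators such as NF-κB, and their levels do not measure AP-1 activity.

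**Figure D5:**
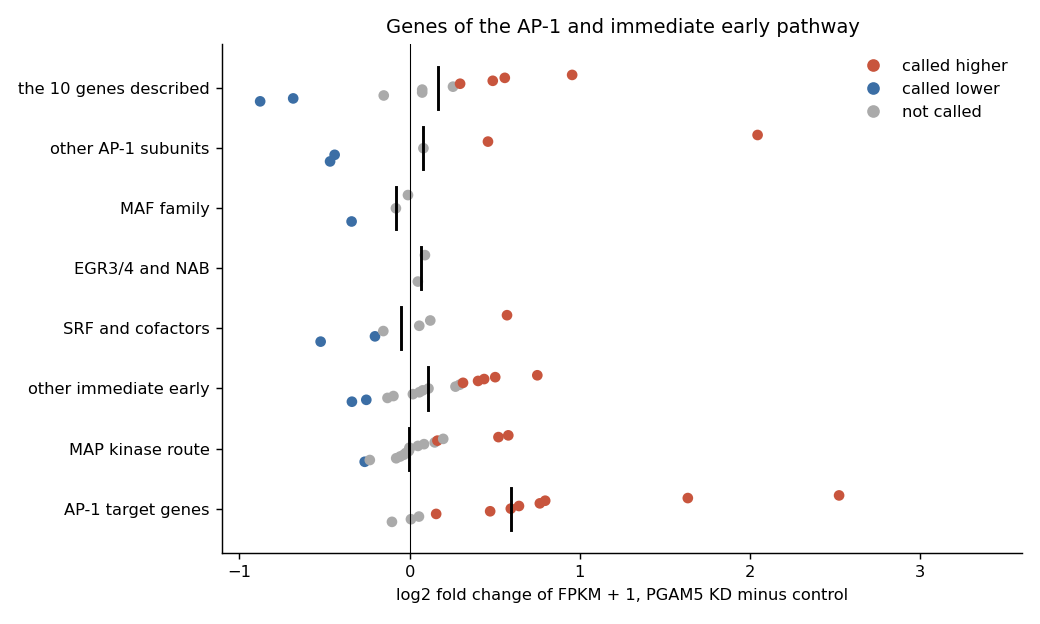
Log2 fold change of FPKM + 1 (x axis, PGAM5 KD minus control) of each tested gene in the 10 genes described and in 7 further lists (rows), coloured by call, with the median of each list as a black line. The AP-1 target genes have the highest median at 0.59 (0.53 without Il6, which passed the filter only through the PGAM5 KD libraries) and hold no gene called lower, the MAF family holds a single gene called lower, the EGR3/4 and NAB row holds no call, and the other rows hold calls in both directions.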

How the data were processed

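RNA-seq was available for 6 libraries, 3 per group, grouped by the shRNA named in the labels. The authors deposited FPKM, 1 table per library listing the same 54532 Ensembl genes, with no counts. The submitters' processing notes name HISAT2 2.0.5, featureCounts 1.5.0-p3 and mm10, and the annotation release is not given in the sources used here. Symbols, coordinates and exon lengths came from GENCODE M21 (54495 identifiers matched, 37 did not). FPKM times exon length gave whole fragments within 0.01 for 96.8% to 97.1% of values under 1000 fragments, from which depth was recovered.

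A mean of 1 FPKM or more over the libraries was required, which left 10540 genes. Their log2(FPKM + 1) values were fitted by limma (version 3.58.1, R 4.3.3) with a mean-variance trend, and two-sided p-values were adjusted by Benjamini-Hochberg over all genes tested. A gene was called at an adjusted p under 0.05. Fits were tested on simulated data. Ratios were compared by exact permutation tests. Whether replicates were separate cultures is not stated, so p-values measure the spread between these libraries, which may be technical. Alternatives were a pseudocount of 0.1, no filter, a mean FPKM of at least 5, TPM, quantile normalization, centring on the library median, no trend, only protein-coding genes, voom on fragments recovered from FPKM, a replicate block and leaving out each library in turn.

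The genes and lists were chosen with earlier results of these data known. Named are all 10 genes, Pgam5, at most 5 called genes of each list by size of change with up to 2 of the other direction, markers near 0, and overlapping or neighbouring genes; others were chosen after their values were seen, as was Jdp2. No other gene apart from the antisense partners resembled a member at 85% identity over 200 bases (blastn 2.17.0). Promoter windows came from RefSeq, and a planned comparison of protein sequences was not run. Python 3.11.15 with pandas 2.3.3 was used for tables, and matplotlib 3.10.9 for plots.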

Additional observations from a re-analysis of the deposited data

How the results depend on the processing

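Of 158 alternative values of the 10 fold changes, 149 kept their direction and their side of the threshold, 6 lost the call and 3 turned direction. The 5 calls of Fos, Fosl2, Junb, Jund and Ier3 held in all 16 alternatives. Ier2 lost its call without the filter (0.2963, adjusted p = 0.0661 from limma), with TPM (0.2252, 0.0616) and in 4 of the 6 fits without 1 library. Over all 6 of these fits its log2 fold change ranged from 0.2332 to 0.3789. Genes not called turned direction with TPM (Jun −0.0013 and Atf3 −0.0042) and quantile normalization (Atf3 −0.0151). TPM divides each library by its summed FPKM, higher in PGAM5 KD libraries, which lowers their values relative to control. Beyond this scaling, the cause was not tested. Egr1 and Egr2 gave no value with a mean FPKM of at least 5. With TPM 1088 genes were called higher over the whole table. Without 1 library, between 0 and 1 of the 10 genes passed the study's rule and between 4 and 7 of the other immediate early genes were called. The 2 heat shock calls became 1 without the filter, with a mean FPKM of at least 5, with TPM and with the replicate block, and between 0 and 1 without 1 library. The replicate numbers did not pair the libraries (correlations of same-numbered deviations −0.02, 0.02 and −0.05). The fit with the replicate block called 1440 genes higher and 1212 lower, with the same 6 calls among the 10 genes. The fewest fragments, between 123 and 168 per library, lay on Egr2, and the largest standard error of the 10 was that of Egr1 (0.14).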

Other observations

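Fos lies on chromosome 12 beside 2 other AP-1 genes, with Jdp2 121.754 kb and then Batf a further 46.791 kb downstream. In PGAM5 KD cells Fos fell (log2 fold change −0.88), Jdp2 was not called (0.08) and Batf rose (2.04; adjusted p = 4.74e-05, 0.287 and 2.27e-05 from limma), 3 different outcomes along the same stretch of the chromosome. Within 50 kb of the 10 genes, 20 other genes were tested and 11 were called, where 31.7% of all genes tested were called. Flot1, a membrane scaffold gene 0.307 kb from Ier3 on the same strand, was at 2.17 ± 0.354 FPKM in control and 3.71 ± 0.228 FPKM in PGAM5 KD (SD, n = 3 each; log2 fold change 0.58, adjusted p = 0.00606 from limma), at a small fraction of the level of Ier3. Of the 5 tested neighbours of Ier3, 4 were called. Ppp1r18 at 42.67 kb (log2 fold change 0.55, adjusted p = 0.00111 from limma) and Tubb5 at 10.998 kb (0.13, 0.0168) were called higher as well, Nrm at 38.395 kb was called lower (−0.22, 0.0143) and Mdc1 at 18.592 kb was not called (−0.11, 0.153). Nfix, 37.024 kb from Ier2, was called lower (−0.58, adjusted p = 0.00336 from limma) while Ier2 was called higher. Whether Flot1 and Ier3 share fragments was not tested.

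Of 6 heat shock genes, which dissociation or handling of cells can induce together with immediate early genes, 4 were tested and 2 were called higher, as were 16.8% of all genes tested. Hspa1b was at 2.03 ± 0.268 FPKM in control and 2.79 ± 0.162 FPKM in PGAM5 KD (log2 fold change 0.33, adjusted p = 0.0389 from limma), and Dnajb1 was at 10.1 ± 0.448 and 12.7 ± 1.05 FPKM (0.30, adjusted p = 0.0164 from limma; SD, n = 3 each). The 2 calls became 0 without PGAM5 KD replicate 2 and 1 without any other single library. Whether handling plays a part in the values of the 10 genes was not tested.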
